A study of Homo sapiens with 4 samples.

Results

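FGF, PDGF, VEGF, neuregulin and IGF signalling genes were followed in the poly-A RNA-seq of day 14 cardiac cells made from human embryonic stem cells by 2 routes. The members were chosen by gene symbol, not by level: the FGF genes, the FGF, PDGF, ERBB, IGF and insulin receptor genes, the PDGF, VEGF and neuregulin ligand genes, IGF1 and the IGF binding protein genes, in all 58 of the 23615 symbols in the gene table. Each of the 2 groups had 2 libraries of unsorted cells of the RUES2 line, labelled as biological replicates in the study's methods, and both groups began with activin A at 100 ng/ml and BMP4 at 5 ng/ml (A100/B5), with the GSK3 inhibitor CHIR-99021 also used during induction. In the first group (ECsXAV), labelled as cardiac myocytes derived from anterior hemogenic endothelium, cells received 200 ng/ml VEGF, 5 ng/ml bFGF (the protein of FGF2) and 10 ng/ml BMP4 from day 2 to day 5, and then 2 µM of XAV-939, a tankyrase inhibitor that blocks Wnt/β-catenin signaling, from day 5. In the second group (CPC), cardiac myocytes from cardiac progenitor cells, no VEGF or bFGF was added, and the study's supplement gives XAV-939 at 1 µM on day 3 for some of its experiments and draws it for this route. Both groups were in medium with insulin from day 7 until the RNA was taken on day 14. Thus 2 kinds of ligand from these families were given as protein to 1 group only, between day 2 and day 5, and insulin, a ligand of INSR, was present in both groups up to the end. The sample names of the groups have different prefixes, whose meaning the labels do not give, so route, added factors and whatever the prefixes mark cannot be told apart.

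These genes encode secreted ligands, the receptor tyrosine kinases they bind and proteins that hold or hide the ligands. A bound ligand pairs its receptors, the receptors phosphorylate each other, and the signal runs through RAS and MAPK and through PI3K and AKT, which in turn switch on feedback inhibitors such as the Sprouty and DUSP genes. In the heart, FGF8 and FGF10 are known from the second heart field, neuregulin acts through ERBB2 and ERBB4 on cardiomyocytes, VEGFA acts on endothelial cells, and IGF2 and its binding proteins bear on growth of the embryonic heart wall.

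The values are FPKM, fragment counts divided by the exon length of the gene and by the mapped fragments of the library, so that levels can be compared between genes. Fold changes are on log2(FPKM + 1), CPC minus ECsXAV, so that a positive value is higher in CPC. Adding 1 makes the change of a weakly expressed gene look smaller than it is. The test was limma on genes whose FPKM averaged at least 1, and a gene passed with a Benjamini-Hochberg adjusted p under 0.05 over all 12398 genes tested and more than a 2-fold change. With 2 libraries a group, the smallest p of an exact permutation test, taken on both sides, is 0.333, and the p-values given here borrow their variance from all genes through limma. The total depth is unknown, and the steps of low FPKM put ECsXAV replicate 2 at 50.1% of the depth of ECsXAV replicate 1, with the CPC replicates at 86.9% and 79.8%.

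Of the 58 members, 35 were tested and 2 passed, FGF12 and FGF1, both higher in ECsXAV. That is 2 of 35 beside 2.15% of all tested genes in either direction, and beside 1.44% for the direction of ECsXAV. No member passed with a higher level in CPC by limma, where 0.71% of all tested genes did. At an unadjusted p under 0.05 there were 13 members (18.2% of all tested genes), 5 of them higher in CPC (7.86%) and 8 higher in ECsXAV (10.4%). The libraries of the groups did not overlap for 20 of the 35 (49.8% of all tested genes). The median log2 fold change of the 35 was 0.023 beside -0.00453 over all tested genes, and the 95% interval stayed within 2-fold for 25 of them (87.7% of all tested genes). In unsorted bulk cultures, fewer cells of a type and less RNA per cell cannot be told apart, which holds for every difference given here.

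**Figure D1:**
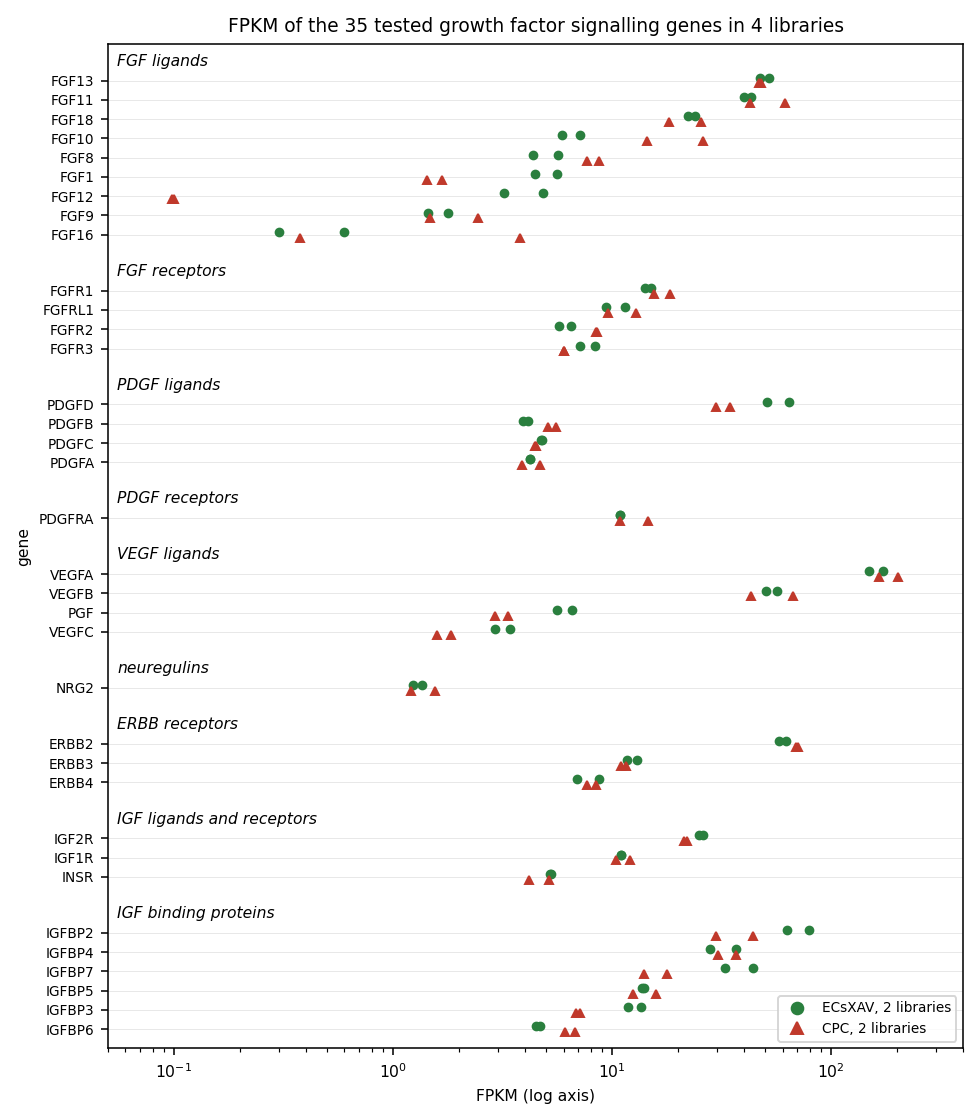
FPKM of the 35 tested members on a log axis, by family, with 1 point for each library (circles ECsXAV, triangles CPC). VEGFA has the highest levels, from 148 to 201 FPKM, and FGF12 is the only tested member with both CPC libraries near 0.1 FPKM.

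The upstream sequences of the 3 FGF genes that differed most in size are shown first, FGF12 and FGF1 because they passed and FGF10 because it had the largest log2 fold change toward CPC. Each is the 250 bases before a RefSeq start on GRCh38.p14, read 5′ to 3′ on the minus strand, which carries all 3 genes, with CG dinucleotides in capitals. FGF12 has 2 RefSeq windows, and for FGF1, with 4 windows, the most 5′ one is shown.
FGF12, outer start, chr3:192727542-192727791: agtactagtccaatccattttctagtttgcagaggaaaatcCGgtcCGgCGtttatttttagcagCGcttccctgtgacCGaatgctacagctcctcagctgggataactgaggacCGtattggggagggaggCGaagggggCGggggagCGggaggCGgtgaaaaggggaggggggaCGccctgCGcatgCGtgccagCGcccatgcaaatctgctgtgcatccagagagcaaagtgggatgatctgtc
FGF12, inner start, chr3:192409598-192409847: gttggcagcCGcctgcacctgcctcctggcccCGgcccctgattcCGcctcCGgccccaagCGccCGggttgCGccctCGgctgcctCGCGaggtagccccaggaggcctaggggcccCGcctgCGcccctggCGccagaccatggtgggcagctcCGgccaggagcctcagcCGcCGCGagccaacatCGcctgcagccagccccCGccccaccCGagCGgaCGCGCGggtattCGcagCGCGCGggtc
FGF1, chr5:142698071-142698320: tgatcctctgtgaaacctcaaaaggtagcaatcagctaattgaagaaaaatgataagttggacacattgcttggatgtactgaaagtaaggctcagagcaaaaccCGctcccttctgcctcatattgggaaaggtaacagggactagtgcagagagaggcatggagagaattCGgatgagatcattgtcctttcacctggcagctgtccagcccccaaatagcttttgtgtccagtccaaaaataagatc
FGF10, chr5:44389421-44389670: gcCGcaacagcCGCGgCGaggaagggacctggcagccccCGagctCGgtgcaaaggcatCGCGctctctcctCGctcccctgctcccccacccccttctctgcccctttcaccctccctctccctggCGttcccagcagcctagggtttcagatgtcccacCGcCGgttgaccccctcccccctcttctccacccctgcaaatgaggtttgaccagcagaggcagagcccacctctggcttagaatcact

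Counted over the whole 300-base RefSeq window, which runs 50 bases past the start, the inner FGF12 start had 34 CG dinucleotides and 75.7% GC, and the outer one had 16 and 58.7%. FGF10 had 13 CG dinucleotides and 62.3% GC. The FGF1 window shown had 2 and 44.3%, and the 4 FGF1 windows ranged from 2 to 8 CG dinucleotides and from 44.3% to 60% GC. The medians over 35116 windows were 14 and 58.7%. The letters searched for TCF/LEF were CTTTGAT or the same ending in A, found in 6.86% of all windows. Those for GATA were AGATAA (10.3%) and those for a TATA box TATAAA (11.5%). A single pattern was searched for MEF2 (2.73%). None of the 7 windows of these genes held any of these on either strand. This says only that these letters are not there, and other forms of the sites were not searched. The FGF1 window shown, for instance, holds the GATA letters with T in place of the first A. RefSeq windows were matched to 42 of the 58 members.

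FGF12 had the largest log2 fold change of the tested members. It lies on chromosome 3 from 191857179 to 192485553 of GRCh37, on the minus strand, and encodes one of the FGF homologous factors, proteins that stay inside the cell and bind voltage-gated sodium channels rather than FGF receptors. Its level was 4.83 and 3.21 FPKM in ECsXAV and 0.0999 and 0.0981 FPKM in CPC, where, as in all pairs of values given for a group, replicate 1 stands first. Both ECsXAV libraries were far above both CPC libraries, with a ratio of group means of 40.6, whose lower term rests on few reads. The log2 fold change was -2.17 ± 0.21 (SE), with an adjusted p of 0.0199 (limma). The other factors of this kind did not follow it. FGF13 was at 52.2 and 47.1 FPKM in ECsXAV and 46.8 and 47.9 FPKM in CPC, the highest mean of all FGF genes, with a log2 fold change of -0.066 (95% interval -0.35 to 0.22, adjusted p = 0.812 by limma). FGF11 was next, at 39.8 and 43.0 FPKM in ECsXAV and 42.5 and 61.3 FPKM in CPC. The groups overlapped for both, and FGF14 was below 0.2 FPKM in all 4 libraries. Thus most of the summed FPKM of the FGF family, which was 141 and 136 in ECsXAV and 152 and 162 in CPC, came from 2 genes whose proteins are not known as secreted ligands.

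FGF1 (chromosome 5, 141971743 to 142077635 of GRCh37, minus strand) encodes a ligand that binds all FGF receptors and leaves the cell without a signal peptide. Its level was 5.62 and 4.45 FPKM in ECsXAV and 1.43 and 1.67 FPKM in CPC. The lowest ECsXAV library was above the highest CPC library, and the mean was 3.24 times as high in ECsXAV. The log2 fold change was -1.24 ± 0.16 (SE, adjusted p = 0.0359 by limma). Without a filter on low FPKM neither gene passed, with adjusted p of 0.0642 for FGF12 and 0.0840 for FGF1, and with quantile normalization FGF1 reached 0.0505. Leaving out any 1 of the 4 libraries took FGF1 out of the calls (adjusted p = 0.0955 to 0.150 by limma), whereas FGF12 was lost only without CPC replicate 1 (0.133) or CPC replicate 2 (0.121).

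The secreted FGF ligands of the heart field had their higher levels in CPC but did not pass. FGF10 (chromosome 5, 44300349 to 44389808 of GRCh37, minus strand), a ligand for FGFR2, was at 7.11 and 5.93 FPKM in ECsXAV and 26.1 and 14.4 FPKM in CPC. Both CPC libraries lay above both ECsXAV libraries and differed widely from each other, and the log2 fold change of 1.45 (95% interval 0.69 to 2.20) had an adjusted p of 0.0848 (limma). It passed only with short RNA genes left out of the fit (adjusted p = 0.00863 by limma). Under the other alternatives that keep all 4 libraries, its adjusted p ran from 0.05 with robust eBayes to 0.154 without a filter. FGF8 was at 5.65 and 4.36 FPKM in ECsXAV and 8.74 and 7.70 FPKM in CPC, without overlap, with a log2 fold change of 0.62 (adjusted p = 0.127 by limma). The other secreted FGFs that were tested overlapped between the groups. FGF18 ranged from 18.2 to 25.5 FPKM over the 4 libraries and FGF9 from 1.44 to 2.43 FPKM. FGF16, a ligand of the heart, stood at 3.80 FPKM in CPC replicate 1 and at 0.300 to 0.598 FPKM in the other 3 libraries, so 1 library carries its log2 fold change of 0.83.

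A further 13 FGF genes were below a mean of 1 FPKM and were not tested. FGF4, FGF19, FGF21 and FGF22 were listed at 0 in all 4 libraries, and FGF3, FGF17 and FGF20 at 0.0883 FPKM or less. FGF2 itself, the gene of the bFGF protein given to the ECsXAV cells, was at 0.725 and 0.698 FPKM in ECsXAV and 0.534 and 0.202 FPKM in CPC. FGF5 was at 0.231 and 0.177 FPKM in ECsXAV and at 0.0409 and 0.0111 FPKM in CPC. FGF6, FGF7 and FGF23 stayed under 0.65 FPKM everywhere. These values rest on few reads, and no fold change is drawn from them.

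The FGF receptors differed little. FGFR1, the receptor with the highest level, was at 14.1 and 15.1 FPKM in ECsXAV and 15.5 and 18.3 FPKM in CPC (log2 fold change 0.20, 95% interval -0.13 to 0.52). FGFRL1, a receptor without a kinase domain, was at 9.36 and 11.5 FPKM in ECsXAV and 9.61 and 12.9 FPKM in CPC, with overlap. FGFR2 was at 5.73 to 6.50 FPKM in ECsXAV and 8.41 to 8.49 FPKM in CPC. FGFR3 was at 7.11 to 8.36 FPKM in ECsXAV and at 6.04 FPKM or less in CPC. Neither passed (adjusted p = 0.161 and 0.290 by limma), though neither overlapped, and for all 4 tested FGF receptors the 95% interval lay within 2-fold. FGFR4 did not exceed 0.671 FPKM.

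**Figure D2:**
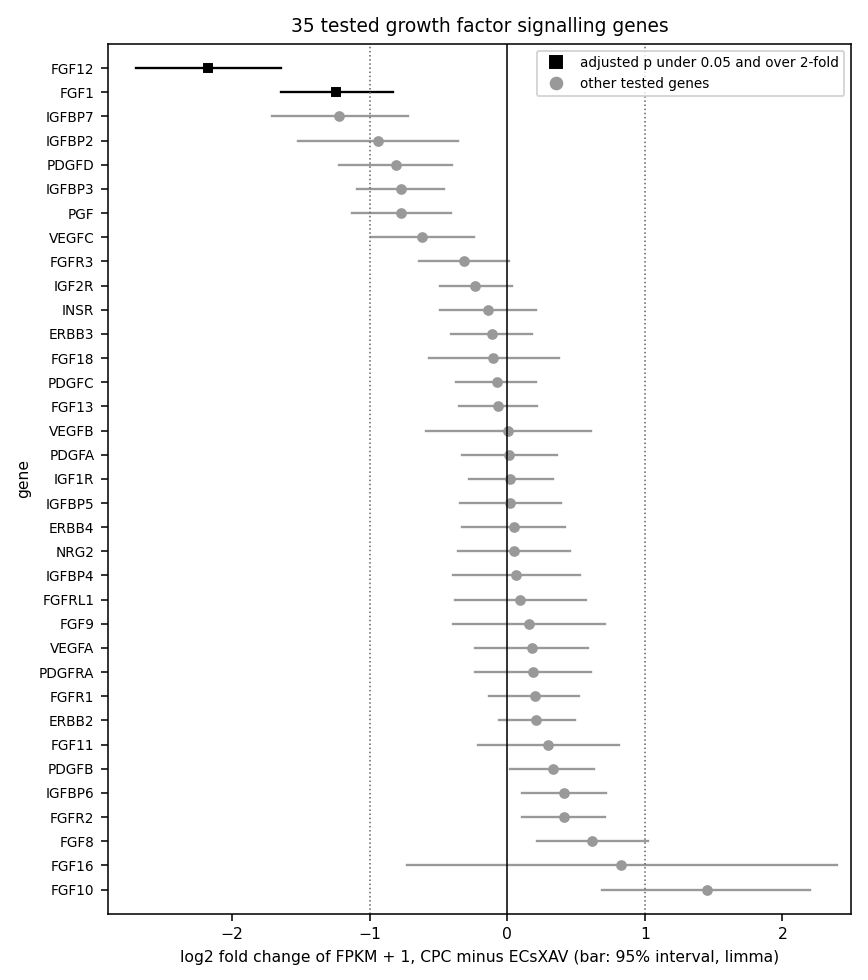
Log2 fold change of FPKM + 1, CPC minus ECsXAV, of the 35 tested members with 95% intervals from limma (dotted lines mark 2-fold, black squares the genes that passed). FGF12 at -2.17 and FGF1 at -1.24 passed, and FGF10 at 1.45 had the largest value toward CPC.

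Among the PDGF genes, PDGFD stood out by its level and by its difference. This ligand of PDGFRB, which is cut free from an inhibitory domain before it binds, was at 64.1 and 50.8 FPKM in ECsXAV and 34.6 and 29.9 FPKM in CPC. The groups did not overlap, with a log2 fold change of -0.81 ± 0.16 (SE), below the 2-fold limit and with an adjusted p of 0.0810 (limma). Its receptor PDGFRB was at 0.689 and 0.752 FPKM in ECsXAV and 0.472 and 0.555 FPKM in CPC, under the filter. PDGFB was at 4.15 and 3.93 FPKM in ECsXAV and 5.54 and 5.12 FPKM in CPC, without overlap (log2 fold change 0.33, adjusted p = 0.243 by limma). PDGFA and PDGFC, ligands of PDGFRA, ranged from 3.88 to 4.77 FPKM over the libraries. PDGFRA, a receptor of cardiac mesoderm and of fibroblasts, was at 10.8 and 10.9 FPKM in ECsXAV and 14.5 and 10.8 FPKM in CPC, where 1 CPC library equalled the ECsXAV level. PDGFRL, a gene related to the receptors, was below 0.62 FPKM.

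VEGFA, the main ligand for endothelial growth, had the highest FPKM of all 58 members, with 148 and 173 FPKM in ECsXAV and 165 and 201 FPKM in CPC. VEGFB followed with 50.1 and 56.8 FPKM in ECsXAV and 42.9 and 66.8 FPKM in CPC. Both overlapped between the groups, and the 95% intervals of their log2 fold changes were -0.23 to 0.59 and -0.59 to 0.61. PGF and VEGFC, at lower levels, did not overlap between the groups. PGF, which binds FLT1, was at 5.58 and 6.59 FPKM in ECsXAV and 3.35 and 2.93 FPKM in CPC (log2 fold change -0.77, adjusted p = 0.0683 by limma). VEGFC, the ligand of lymphatic growth, was at 2.91 and 3.41 FPKM in ECsXAV and 1.58 and 1.84 FPKM in CPC (log2 fold change -0.62, adjusted p = 0.115). FIGF, the gene of VEGFD, was at 0.121 and 0.127 FPKM in ECsXAV and near 0 in CPC.

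Of the VEGF receptors and co-receptors, a list of 5 genes, 4 were tested and none passed, nor had any an unadjusted p under 0.05. The neuropilins, which help VEGF bind its receptors, had the highest levels of that list. NRP2 was at 32.0 and 36.5 FPKM in ECsXAV and 39.3 and 45.0 FPKM in CPC. NRP1 was at 56.0, 54.3 and 51.9 FPKM in 3 libraries and listed at 0 in CPC replicate 2, 1 of 22 genes at 0 beside at least 5 FPKM in the other library of the group, so that 0 may be a failed estimate. Its log2 fold change was -2.95 with all libraries (adjusted p = 0.482 by limma), -0.09 without CPC replicate 2, and -5.81 without CPC replicate 1, when it passed (0.0123). No member showed such a 0.

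ERBB2 was the most expressed ERBB receptor gene, at 58.0 and 62.3 FPKM in ECsXAV and 69.3 and 70.6 FPKM in CPC. It binds no ligand of its own and signals in pairs with ERBB3 or ERBB4. It did not overlap between the groups, though the log2 fold change was 0.21 (95% interval -0.061 to 0.49). ERBB3 was at 11.7 and 13.0 FPKM in ECsXAV and 11.6 and 11.0 FPKM in CPC, and ERBB4, the neuregulin receptor of cardiomyocytes, ranged from 6.93 to 8.67 FPKM over all 4 libraries. All 3 had intervals within 2-fold, and EGFR did not exceed 0.160 FPKM. The neuregulin genes themselves were low. NRG2 was the only tested one, at 1.23 and 1.36 FPKM in ECsXAV and 1.55 and 1.21 FPKM in CPC. NRG1, the neuregulin of the endocardium, was at 0.629 and 0.326 FPKM in ECsXAV and 1.04 and 0.675 FPKM in CPC. NRG3 and NRG4 did not exceed 0.683 FPKM. Receptor RNA was thus present at levels many times those of neuregulin RNA in both groups. Of 7 other EGF-family ligands, 3 were tested and none passed. HBEGF was at 5.36 and 5.98 FPKM in ECsXAV and 5.57 and 5.44 FPKM in CPC, and TGFA was at 2.40 and 2.72 FPKM in ECsXAV and 5.18 and 9.34 FPKM in CPC (log2 fold change 1.17, adjusted p = 0.109 by limma).

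The IGF binding proteins had the lowest median log2 fold change of any family, -0.374, close to -0.306 for the VEGF ligands. It fell between 3 genes above 0 and 3 below 0, and none of them passed. Of 6 tested, 3 were higher in both ECsXAV libraries than in both CPC libraries (25.4% of all tested genes), and 1 was the other way round. IGFBP7, a secreted protein of vessels that binds IGF weakly, was at 32.8 and 43.8 FPKM in ECsXAV and 14.0 and 17.7 FPKM in CPC. Its log2 fold change of -1.22 ± 0.19 (SE) had an adjusted p of 0.0531 (limma), just outside the threshold. It passed with a pseudocount of 0.1 (0.0442), robust eBayes (0.00748), a replicate block (0.0353) and short RNA genes left out (0.00423). It did not pass with quantile normalization (0.0573), no trend (0.0572), a filter of 5 FPKM (0.0505) or no filter (0.106). With 1 library left out, its log2 fold change ranged from -1.42 to -1.01. IGFBP2 had the highest mean of the family, at 63.0 and 78.9 FPKM in ECsXAV and 29.9 and 43.9 FPKM in CPC (log2 fold change -0.94, adjusted p = 0.118). IGFBP3, the main IGF carrier in serum, was at 11.8 and 13.6 FPKM in ECsXAV and 6.86 and 7.16 FPKM in CPC (log2 fold change -0.77, adjusted p = 0.0529). The groups did not overlap for any of the 3. The IGFBP3 replicates lay close together, while those of IGFBP2 and IGFBP7 were further apart in both groups. The remaining members of the family did not follow. IGFBP4, next to IGFBP2 in mean level, was at 28.0 and 36.6 FPKM in ECsXAV and 30.5 and 36.9 FPKM in CPC, and IGFBP5 ranged from 12.5 to 15.8 FPKM, both with overlap. IGFBP6 was at 4.67 and 4.48 FPKM in ECsXAV and 6.12 and 6.74 FPKM in CPC (log2 fold change 0.41, adjusted p = 0.159), and IGFBP1 was listed at 0.

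The receptors of this axis differed little. IGF2R, which clears IGF2 from the cell surface, was at 26.0 and 25 FPKM in ECsXAV and 21.3 and 22.0 FPKM in CPC. INSR was at 5.19 and 5.27 FPKM in ECsXAV and 4.19 and 5.15 FPKM in CPC. These 2 did not overlap between the groups and neither passed (adjusted p = 0.330 and 0.651 by limma). IGF1R was at 11.0 FPKM in both ECsXAV libraries and 10.4 and 12.0 FPKM in CPC, and for all 3 receptors the 95% interval was within 2-fold. IGF1 was below 0.06 FPKM in every library. Among 14 other genes of the axis, 8 were tested, none passed, and none had an unadjusted p under 0.05. IGF2, the IGF ligand of the embryo, was at 25.9 and 34.6 FPKM in ECsXAV and 32.5 and 43.6 FPKM in CPC, with overlap. HTRA1, a protease that cuts IGF binding proteins, was at 61.9 and 68.3 FPKM in ECsXAV and 76.1 and 90.1 FPKM in CPC, without overlap (log2 fold change 0.34, adjusted p = 0.282 by limma).

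The genes that act with these ligands and receptors were described from 6 lists with 94 genes, of which 75 were tested and 3 passed (2.15% of all tested genes). All 3 were in a pair of lists. Of 22 genes for heparan sulfate and other co-receptors, the sugar chains and core proteins that hold FGFs at the cell surface, 17 were tested and 2 passed, both higher in ECsXAV. SULF2 and SULF1 encode the enzymes that remove 6-O-sulfate from heparan sulfate outside the cell. SULF2 was at 4.84 and 5.05 FPKM in ECsXAV and 0.858 and 1.16 FPKM in CPC, with a log2 fold change of -1.57 ± 0.14 (SE, adjusted p = 0.0191 by limma). SULF1 was at 2.14 and 2.48 FPKM in ECsXAV and 0.233 and 0.159 FPKM in CPC, with a log2 fold change of -1.47 ± 0.16 (SE, adjusted p = 0.0265). For both enzymes the ECsXAV libraries were close together and well above the CPC libraries. The median of the list was -0.312, beside -0.00453 over all tested genes, with 13 of 17 below 0. At an unadjusted p under 0.05 by limma there were 9 of the 17 (18.2% of all tested genes). Of these, 2 were higher in CPC (7.86%) and 7 higher in ECsXAV (10.4%). Among the tested core proteins, GPC3 and GPC4 alone had their higher means in CPC. SDC1, SDC2, SDC3, SDC4, GPC1, GPC2, GPC6 and HSPG2 had theirs in ECsXAV. GPC3 and GPC4, the glypicans with the highest means, were at 41.5 and 41.5 and at 25.4 and 28.4 FPKM in ECsXAV, and at 87.6 and 69.9 and at 40.4 and 41.4 FPKM in CPC. Neither passed (adjusted p = 0.0542 and 0.0750). GPC1, named after its values were seen, was at 27.6 and 33.2 FPKM in ECsXAV and 13.9 and 16.3 FPKM in CPC, with an adjusted p of 0.0485 and a log2 fold change of -0.96, short of 2-fold.

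Of 17 feedback inhibitors and target genes, which limit receptor tyrosine kinase signalling or are switched on by it, 14 were tested and 1 passed. DUSP6, a phosphatase that turns off the MAPKs and a widely used readout of FGF signalling, was at 5.68 and 5.83 FPKM in ECsXAV and 18.0 and 12.7 FPKM in CPC. Its log2 fold change was 1.26 ± 0.18 (SE, adjusted p = 0.0451 by limma). The list as a whole did not move one way, with a median of 0.116 and 7 of 14 above 0. At an unadjusted p under 0.05 there were 8 of the 14 (18.2% of all tested genes), 6 higher in CPC (7.86%) and 2 higher in ECsXAV (10.4%). SPRY2 was at 17.2 and 21.1 FPKM in ECsXAV and 30.2 and 29.4 FPKM in CPC, and DUSP5 at 29.6 and 34.3 and at 38.6 and 43.2 FPKM, the highest levels of the list. SPRY4 (1.27 and 1.71 against 3.27 and 5.01 FPKM) and ETV5 (4.02 and 4.32 against 6.63 and 8.89 FPKM), named after their values were seen, also lay higher in both CPC libraries, with adjusted p of 0.0928 and 0.0993. The 2 toward ECsXAV were LRIG1 (13.3 and 15.1 against 8.08 and 9.48 FPKM, adjusted p = 0.0884) and IL17RD, an inhibitor of FGF receptor signalling (11.1 and 9.68 against 7.54 and 7.08 FPKM, adjusted p = 0.146).

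**Figure D3:**
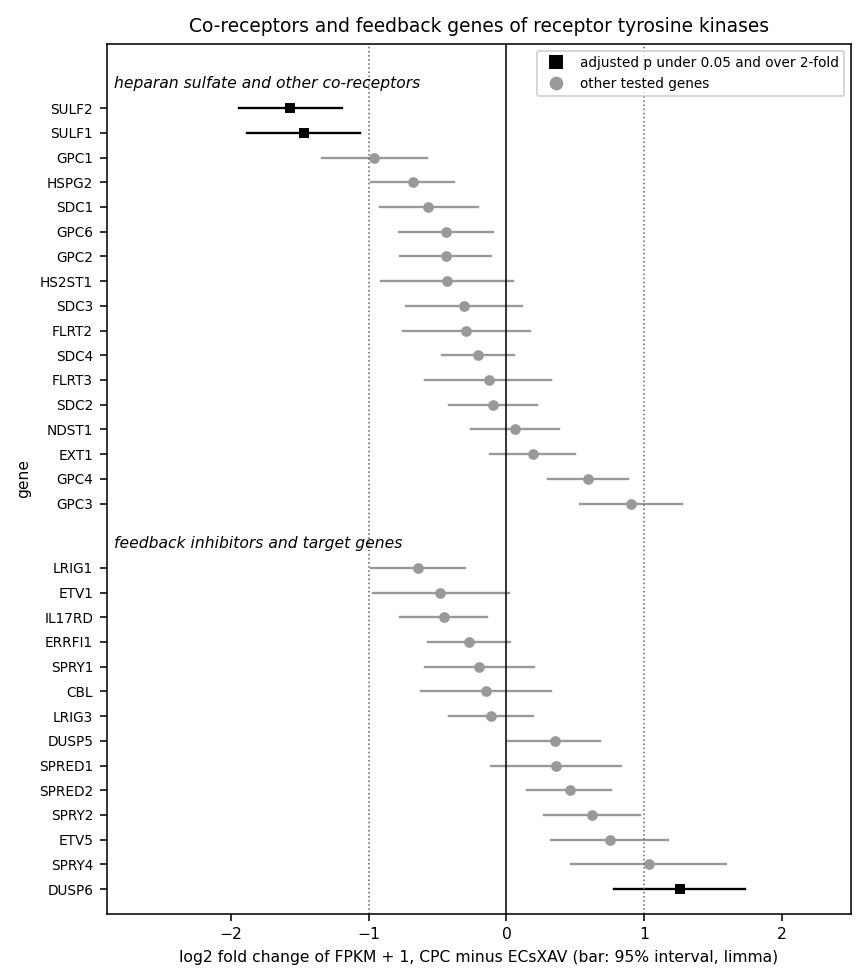
Log2 fold change of FPKM + 1, CPC minus ECsXAV, with 95% intervals from limma, of the 17 tested co-receptor and heparan sulfate genes and the 14 tested feedback and target genes. SULF2 at -1.57, SULF1 at -1.47 and DUSP6 at 1.26 passed, while both lists hold genes on either side of 0.

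In the cytoplasmic relay between receptors and nucleus, all 29 genes were tested, none passed, and the 95% interval was within 2-fold for 27. The median log2 fold change was 0.002. AKT1, a kinase downstream of PI3K, had the highest mean of the list, at 58.8 and 64.0 FPKM in ECsXAV and 58.9 and 61.1 FPKM in CPC. At an unadjusted p under 0.05 there were 4 genes, all higher in ECsXAV (10.4% of all tested genes): the adaptors GAB1 and GAB2, the phosphatase PTPN11 and the PI3K subunit PIK3R3. GAB2 was at 14.2 and 16.0 FPKM in ECsXAV and 6.91 and 8.06 FPKM in CPC, with an adjusted p of 0.0432 and a log2 fold change of -0.93, short of 2-fold, and the other 3 had adjusted p from 0.0673 to 0.178 (limma). The 3 calls outside the members depended on single libraries and on the processing. Leaving out any 1 library ended the call of DUSP6 (adjusted p = 0.0826 to 0.243 by limma) and of SULF2 (0.0653 to 0.109), and SULF1 was lost without CPC replicate 1 (0.110) or CPC replicate 2 (0.0984). Without a filter they reached 0.0967, 0.0652 and 0.0570 in the same order, and with quantile normalization DUSP6 reached 0.0556.

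**Figure D4:**
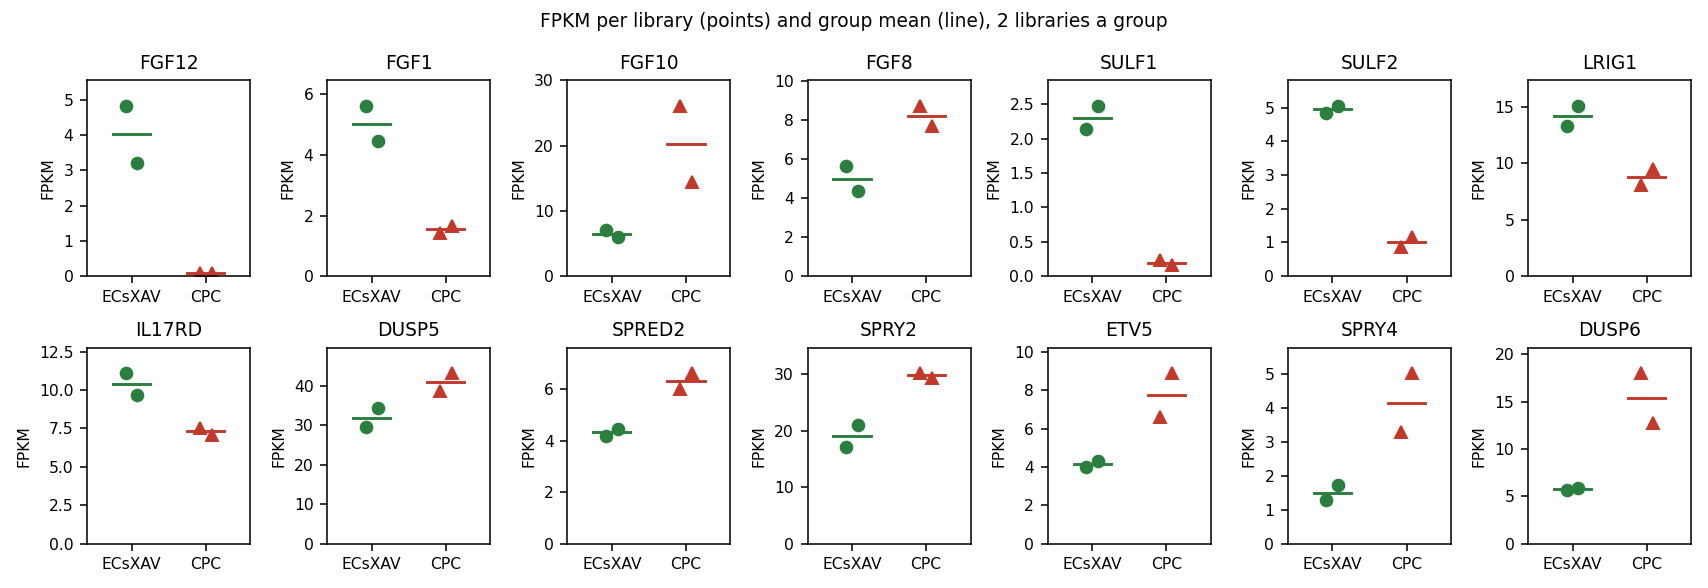
FPKM in each library (points) and group means (lines) of 4 FGF genes, the 2 sulfatases and the 8 feedback genes with an unadjusted p under 0.05, each on its own linear axis from 0. The genes were picked because they differ, so their lack of overlap is not a finding, and 49.8% of all tested genes do not overlap either. FGF12, FGF1, SULF1, SULF2, LRIG1 and IL17RD are higher in ECsXAV, and FGF10, FGF8 and the other 6 feedback genes higher in CPC.

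Some lists of cell type markers differed between the groups and others did not. The part of any cell type in the differences above was not tested. The cardiomyocyte markers were high throughout, with sums over 8 genes from 13665 to 15183 FPKM, and 1 of the 8 passed, MYH6, higher in CPC (855 and 857 against 2070 and 1900 FPKM). By log2 fold change, 3 of the 8 were above 0 and 5 below 0, with a median of -0.285. MYL7, MYL4 and ACTN2 lay higher in both ECsXAV libraries, and MYH6 and TNNT2 in both CPC libraries. The sum of 9 endothelial markers was 3.75 and 5.43 FPKM in ECsXAV and 4.05 and 2.91 FPKM in CPC, and neither of the 2 that were tested passed. PECAM1 and VWF were at 0.233 FPKM or less. The 2 tested genes went opposite ways. CDH5 was at 1.19 and 1.49 FPKM in ECsXAV and 0.875 and 0.649 FPKM in CPC. EMCN was at 0.731 and 0.964 FPKM in ECsXAV and 1.79 and 0.975 FPKM in CPC. Below the filter, TEK, SOX17, CD34 and VWF lay higher in both ECsXAV libraries. TEK was at 0.446 and 0.831 FPKM in ECsXAV and 0.263 and 0.124 FPKM in CPC. PECAM1, TIE1 and ERG overlapped, with their higher means in ECsXAV, so EMCN alone had its higher mean in CPC. The values below the filter rest on few reads. KDR, a VEGF receptor of endothelial and cardiac progenitor cells, was at 9.80 and 7.06 FPKM in ECsXAV and 10.8 and 8.69 FPKM in CPC, with overlap. Of 9 fibroblast and mural markers, 7 were tested and 3 passed, all higher in ECsXAV (COL1A1, COL3A1 and LUM), with sums of 220 and 225 FPKM in ECsXAV and 151 and 143 FPKM in CPC. The 4 other tested ones did not pass. Of these, RGS5 and CSPG4 had their higher means in ECsXAV, and ACTA2 overlapped. POSTN was at 7.08 and 7 FPKM in ECsXAV and at 8.83 and 7.15 FPKM in CPC. Of 6 proliferation genes 4 passed, all higher in ECsXAV, with sums of 67.6 and 57.8 against 24.3 and 26.3 FPKM. Of 8 hepatic and endoderm markers, 3 were tested and 2 passed (AFP and TTR), both higher in ECsXAV. The sums of that list were 37.8 and 31.9 against 16.3 and 18.3 FPKM. APOA1, the largest part of these sums, was at 20.6 and 17.9 against 15.9 and 17.8 FPKM and did not pass. ALB, below the filter, overlapped. Of 6 neural markers, the single tested gene TUBB3 passed, at 3.69 and 3.39 FPKM in ECsXAV and 0.498 and 0.650 FPKM in CPC, while SOX1 was listed at 0 in all libraries. Below the filter, PAX6 (0.149 and 0.203 against 0.305 and 0.238 FPKM) and SOX2 lay higher in both CPC libraries. STMN2 (0.581 and 0.758 against 0 and 0.028 FPKM) lay higher in both ECsXAV libraries. Of 6 blood markers, the single tested gene HBE1 was at 2.13 and 4.55 FPKM in ECsXAV and 0.338 and 0.184 FPKM in CPC (log2 fold change -1.73, adjusted p = 0.0660 by limma), and HBZ was at 0.582 and 0.465 FPKM in ECsXAV and listed at 0 in CPC, as was PTPRC in all libraries. The skeletal muscle and pluripotency lists had sums from 0.819 to 2.69 FPKM in all libraries.

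The isoform table divides these levels between transcripts, and the division was often not stable within a group. Among 22 tested members with more than 1 transcript, 36 transcripts had a mean of at least 1 FPKM, and for 18 of these the share moved by over 10 percentage points between the replicates of a group. FGF12 was read almost wholly as NM_004113 in ECsXAV, at 99.0% and 93.4% of the gene. FGF13 was split evenly across libraries, with NM_033642 at 57.9% and 53.3% in ECsXAV and 59.3% and 60.2% in CPC. The PDGFD transcript NM_033135 took 6.80% and 16.4% in ECsXAV and at most 0.0305% in CPC. FGFR3 NM_022965 took 18.5% and 35.5% in CPC, 17 points apart, and at most 0.0171% in ECsXAV. At 1.12 and 2.13 FPKM in CPC and near 0 in ECsXAV, this transcript was under the mean of 1 FPKM used above. NRG2 was given almost wholly to NM_004883 in replicate 1 and almost wholly to NM_013981 in replicate 2 of both groups, and its shares are not compared between the groups. These shares were not tested.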

How the data were processed

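Poly-A RNA of 4 unsorted day 14 cultures was sequenced, 2 for each group. The deposited values are FPKM, which the authors computed with Cufflinks and UCSC annotations on hg19. The submitters' processing notes also name TopHat 1.3.3. A scaling between libraries, the use of strand and the handling of reads with several alignments are not given for the FPKM in the sources used here, so a gene and an overlapping antisense gene (FGF1, FGF12, FGF10, FGF13 and IGFBP7 are among the members with one) may share reads. Read counts were not used here, and the total depth is unknown.

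Groups came from the sample labels. For a symbol with several rows the highest mean was used, and each of the 58 members had 1 row. limma 3.58.1 (R 4.3.3) was fitted to log2(FPKM + 1), its variance prior following the mean level, and p-values were adjusted over the 12398 genes with a mean of at least 1 FPKM. A gene passed with an adjusted p under 0.05 and a change over 2-fold, the thresholds the study used for its counts. Alternatives were no filter or one of 5 FPKM, a pseudocount of 0.1, quantile and median-of-ratios scaling, no trend, robust eBayes, a replicate block, loci or isoforms summed, short RNA genes left out, and 1 library left out at a time. The p-values rest only on the spread between 2 libraries a group, with the variance of each gene moderated over all tested genes.

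The members, gene lists, tests and alternatives were chosen with earlier results of these data known. Values in all 4 libraries are given, apart from 1 gene, for members that passed, for tested members without overlap and over 0.5 in log2 fold change, and for the 2 with the highest mean in each family, and likewise for companion genes that passed or had the 2 highest means of a list. The values of that gene, a companion gene, are not reported here. A few more genes were picked once their values were known. Coordinates came from GENCODE 44 lifted to GRCh37, and upstream sequences from RefSeq on GRCh38.p14. The 4 figures were drawn with matplotlib 3.10.9, and tables were handled in Python 3.11.15 through NumPy 2.4.6 and pandas 2.3.3.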

Additional observations from a re-analysis of the deposited data

How the results depend on the processing

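Members past the criterion numbered 2 with the settings of the report, both higher in ECsXAV, and 0 without a filter on low FPKM (18772 genes tested, of which 20 passed), 0 with a mean of at least 5 FPKM (which leaves out FGF12 and FGF1 by construction), 1 with quantile normalization and 4 with short RNA genes left out, where FGF10 added 1 higher in CPC and IGFBP7 made 3 higher in ECsXAV. A pseudocount of 0.1 and robust eBayes each gave 3 members. Companion genes past the criterion went from 3 to 5 with a pseudocount of 0.1, robust eBayes or short RNA genes left out, to 2 with quantile normalization, to 1 with a mean of at least 5 FPKM and to 0 without a filter. Apart from the filters' own construction, the cause was not tested. Leaving out 1 library, with the lone library assumed to vary like the others, gave 0 to 1 members past the criterion, 0 to 1 higher in ECsXAV and 0 higher in CPC, and 0 to 1 companion genes. Of 374 values of single members under alternatives that keep all 4 libraries, 365 kept direction and side of the threshold, 4 lost the call, 5 gained it and 0 changed sign. When 1 library was left out, the log2 fold change of 13 members changed sign, with ranges of -0.095 to 0.19 for ERBB4, -0.14 to 0.0074 for FGF13, -0.067 to 1.73 for FGF16, -0.33 to 0.14 for FGF18, -0.080 to 0.40 for FGF9, -0.10 to 0.29 for FGFRL1, -0.072 to 0.12 for IGF1R, -0.12 to 0.25 for IGFBP4, -0.13 to 0.18 for IGFBP5, -0.055 to 0.15 for NRG2, -0.10 to 0.12 for PDGFA, -0.0079 to 0.39 for PDGFRA and -0.31 to 0.32 for VEGFB. The labels do not say that replicate numbers mark pairs, and with 2 numbers the data cannot show it: across 12086 genes, the gap between replicates 1 and 2 in ECsXAV and that in CPC had a Pearson's r of 0.183 (rho 0.376), which describes genes within these libraries. With the replicate block, 2 members passed, FGF12 and IGFBP7, and FGF1 did not (adjusted p = 0.0636 by limma), while 1 companion gene, SULF2, passed, without DUSP6 (0.0602) and SULF1 (0.0564), and the count over all genes went from 266 to 176. Fold changes were not drawn for the 23 members under the filter, and since total depth is unknown, a low level and a gene read too few times cannot be told apart there.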
